A study of Mus musculus with 20 samples.

Results

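Genes through which astrocytes take up transmitter, buffer potassium, move water and couple to each other were followed in single-cell RNA sequencing of the mouse basolateral amygdala (BLA). The 8 genes were chosen by their symbols from a list, with earlier results of these data known. Each symbol was found once among the 31053 genes of the count files. They are Slc1a2 (ENSMUSG00000005089), Slc1a3 (ENSMUSG00000005360), Glul (ENSMUSG00000026473), Slc6a11 (ENSMUSG00000030307), Kcnj10 (ENSMUSG00000044708), Aqp4 (ENSMUSG00000024411), Gja1 (ENSMUSG00000050953) and Gjb6 (ENSMUSG00000040055). The study asked how chronic corticosterone, a stress hormone, and a later low dose of ketamine, a fast-acting antidepressant, alter cells of the brain. The mice were wild-type male C57BL/6 animals aged 13 weeks, and each gave 1 BLA library. The BCD/Sal group (mice 9901 and 9947) had the vehicle 2-hydroxypropyl cyclodextrin (BCD) and saline, and the BCD/Ket group (9946, 9949 and 9986) had the vehicle and ketamine. The CORT/Sal group (9969 and 9970) drank corticosterone at 35 µg/ml for 6 weeks before saline, and the CORT/Ket group (9967, 9968 and 9971) drank corticosterone before ketamine. Ketamine was given once at 10 mg/kg, 24 h before the brains were taken. The 10 samples of the prefrontal cortex were not analysed here.

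Astrocytes clear glutamate from synapses with the sodium-driven carriers GLT-1 (Slc1a2) and GLAST (Slc1a3), and glutamine synthetase (Glul) turns the glutamate into glutamine that is handed back to neurons. GAT-3 (Slc6a11) takes up GABA. The potassium channel Kir4.1 (Kcnj10) and the water channel aquaporin-4 (Aqp4) carry potassium and water at astrocyte processes, and connexin 43 (Gja1) and connexin 30 (Gjb6) form the gap junctions that join astrocytes into a network.

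Promoter sequence was given by RefSeq for 7 of the 8 genes, and 3 are shown as the ones to which the results below return most often: the Slc1a2 and Slc1a3 levels moved alike between libraries, and the Kcnj10 pattern over cell classes differed from the others. Each sequence is the 250 bases before the annotated start on GRCm38.p6, written 5′ to 3′ along the gene's strand. Capitals mark 3 motifs searched on both strands: AGAACA or TGTTCT, a glucocorticoid receptor motif, TTGGC or GCCAA, a nuclear factor I motif, and ACAAT or ATTGT, a SOX motif. No motifs overlapped in these sequences.
Slc1a2, chr2:102706188-102706437, plus strand: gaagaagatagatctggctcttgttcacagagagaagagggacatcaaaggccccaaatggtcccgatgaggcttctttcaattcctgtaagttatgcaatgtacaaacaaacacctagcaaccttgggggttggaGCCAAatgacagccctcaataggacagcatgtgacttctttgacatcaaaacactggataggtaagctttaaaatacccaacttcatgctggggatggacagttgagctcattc
Slc1a3, chr15:8710808-8711057, minus strand: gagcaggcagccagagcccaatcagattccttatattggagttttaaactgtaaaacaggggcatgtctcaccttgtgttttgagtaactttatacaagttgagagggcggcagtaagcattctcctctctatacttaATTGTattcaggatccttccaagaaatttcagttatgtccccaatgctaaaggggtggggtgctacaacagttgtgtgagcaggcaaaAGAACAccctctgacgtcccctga
Kcnj10, chr1:172340960-172341209, plus strand: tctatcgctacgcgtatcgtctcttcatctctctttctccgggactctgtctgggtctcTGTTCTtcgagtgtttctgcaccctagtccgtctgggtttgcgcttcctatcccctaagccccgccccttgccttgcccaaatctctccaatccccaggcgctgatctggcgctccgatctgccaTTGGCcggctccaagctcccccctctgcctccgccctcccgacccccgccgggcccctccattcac
The glucocorticoid receptor motif stood 24 to 19 bases before the start of Slc1a3 and 191 to 186 bases before that of Kcnj10. This motif was present in 16.1% of the 32851 promoter windows of the same length, the nuclear factor I motif in 41.5% and the SOX motif in 27.7%. Among the other 4 promoters, Glul held 2 nuclear factor I motifs, and Slc6a11, Gja1 and Gjb6 held none of the 3. A match describes letters only and no binding was measured.

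Counts are unique molecular identifiers (UMIs), each standing for 1 captured transcript. Of 28722 barcodes, 8305 had a mitochondrial share of at most 12.5% and at least 200 genes and were kept. They fell into 17 clusters, formed without the 8 genes, and 1 cluster of 1290 barcodes was named astrocytes for 10 markers among its leading genes, Sox9, Fgfr3 and Cldn10 among them. Plpp3 had a UMI in 97.1% of these barcodes and in 27.9% of the other kept ones. Clusters left unnamed held 3195 of the kept barcodes. In all, 6 libraries held 179 to 255 astrocytes with a median of 1058 to 3072 UMIs each. The other 4 held few or no astrocytes in this clustering. Mice 9947, 9946 and 9967 had 4, 7 and 4 astrocytes and at most 4 oligodendrocyte precursor cells, and mouse 9970 had none of either. The astrocyte counts of mice 9947, 9946 and 9967 depended on the clustering. They were 14, 27 and 40 at Leiden resolution 0.4, and 14, 27 and 39 with the 8 genes kept in. In the clustering used here, at resolution 0.8, astrocyte values rest on 1 BCD/Sal mouse (9901) and 2 BCD/Ket mice (9949 and 9986). The corticosterone groups give 1 CORT/Sal mouse (9969) and 2 CORT/Ket mice (9968 and 9971). None of the astrocyte barcode sequences recurred in another library, and 21 sequences of kept barcodes did.

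The glutamate carriers were highest in astrocytes in all 6 mice, among the classes with at least 10 cells in a mouse, to which the comparisons below are held unless stated. The level is given as CPM, that is UMIs per 1000000 UMIs of the class in that mouse. In astrocytes, Slc1a2 stood at 11357 in BCD/Sal mouse 9901, 7911 and 11311 in BCD/Ket mice 9949 and 9986. The CORT/Sal mouse 9969 had 8161, and CORT/Ket mice 9968 and 9971 had 8310 and 11814. Among the named glial classes oligodendrocyte precursor cells came next, with 1254, 870, 767, 610, 757 and 1178 CPM in the same order. That was 9.23% ± 1.79 (SD, n = 6) of the astrocyte level of the same mouse, against 2.03% ± 1.98 in oligodendrocytes and 2.28% ± 1.21 in microglia. For Slc1a3, the astrocyte levels were 4705, 4126, 4405, 4028, 3941 and 4718 CPM. Precursor cells held 9.04% ± 2.19 of that level, microglia 5.01% ± 1.38 and excitatory neurons 0.4% ± 0.183, and in mice 9901 and 9969 the ependymal cluster came next after astrocytes (1055 and 398 CPM). The mean shares of the carriers lay apart in neurons. Excitatory neurons kept 4.74% ± 3.53 of the astrocyte Slc1a2 level, more than 10 times their mean share for Slc1a3. The Slc1a2 share had a wide range over mice of 0.462% to 10.9%. In mouse 9968, 13 excitatory neurons held 3 UMIs of the 8 genes together, 1 of them of Slc1a3, so the gap could not be read there.

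Glul was the most widely shared of the 8. Its astrocyte levels were 2141 CPM in mouse 9901, 2671 in 9949, 2398 in 9986, 2529 in 9969, 2198 in 9968 and 2000 in 9971. In oligodendrocytes of the same mice it stood at 1375, 1680, 1129, 1107, 785 and 1047 CPM, which was 51.0% ± 11.1 of the astrocyte level. Endothelial cells held 43.9% ± 5.01, pericytes or mural cells 24.9% ± 5.90 and microglia 23.0% ± 5.83, whereas precursor cells held 4.93% ± 3.34 and excitatory neurons 2.40% ± 3.73. Astrocytes were nevertheless highest in 6 of 6 mice, by 1.56 to 2.28 times over the next class, but in 5 of 7 mice with the mitochondrial limit at 5% and in 8 of 9 at Leiden resolution 0.4 or with the 8 genes kept in the clustering. Oligodendrocytes and endothelial cells overlapped in these shares. Slc6a11, the GABA carrier, was narrower. It stood at 718, 1056, 839, 923, 1078 and 826 CPM in astrocytes of mice 9901, 9949, 9986, 9969, 9968 and 9971. Precursor cells held 9.97% ± 3.66 of that level and oligodendrocytes 0.629% ± 0.904.

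Kcnj10 was the exception among the 8, since astrocytes were its highest class in 0 of 6 mice. Its astrocyte levels were 184 CPM in mouse 9901, 183 in 9949, 146 in 9986, 161 in 9969, 171 in 9968 and 139 in 9971. In oligodendrocytes they were 252, 307, 334, 236, 159 and 230 CPM in the same order, and in precursor cells 292, 330, 286, 146, 172 and 257. Oligodendrocytes were above astrocytes in 5 of 6 mice (157% ± 44.9 of the astrocyte level) and so were precursor cells (152% ± 45.3). These counts were small, with 47 to 103 Kcnj10 UMIs per astrocyte library and 19 to 73 per oligodendrocyte library, and the exact 95% Poisson intervals of astrocytes and of either class overlapped in 4 of 6 mice. In mouse 9949 the intervals lay apart, at 150 to 222 CPM in astrocytes, 241 to 387 in oligodendrocytes and 240 to 443 in precursor cells. They also lay apart in mouse 9986, at 109 to 191, 256 to 429 and 202 to 392 CPM. All such intervals cover counting error only. Microglia, endothelial cells and pericytes held 3.57% to 5.97% of the astrocyte level on average. The ependymal cluster was the highest class in mice 9901 (577 CPM) and 9969 (241 CPM) and was below astrocytes in 9971 (104 CPM, from 4 UMIs). With the mitochondrial limit at 5%, astrocytes were highest for Kcnj10 in 3 of 7 mice.

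Among the classes with at least 10 cells, Aqp4, Gja1 and Gjb6 were low outside astrocytes, except that Aqp4 and Gja1 were also present in the ependymal cluster, which Ttr, a choroid plexus gene, led together with cilium genes. Aqp4 stood at 1144, 937, 1547, 913, 1157 and 912 CPM in astrocytes of mice 9901, 9949, 9986, 9969, 9968 and 9971. The ependymal cluster reached 1114 CPM in mouse 9901, 426 in 9969 and 700 in 9971, the 3 mice with at least 10 such cells, or 73.6% ± 25.5 (SD, n = 3) of the astrocyte level. Every other named class of that size averaged at most 1.75% for Aqp4. Gja1 stood at 1835, 1731, 1783, 1805, 1965 and 2051 CPM in astrocytes, with 27.1% ± 8.20 of that level in the ependymal cluster and 4.18% ± 2.41 in endothelial cells. Gjb6 stood at 405, 574, 504, 569, 500 and 525 CPM in astrocytes. Its share in the ependymal cluster was 2.19% ± 2.51, so the connexins parted there: Gja1 was present and Gjb6 was at most a few percent. Astrocytes were highest in 5 of 6 mice for Aqp4 with a minimum of 500 genes and in 4 of 6 for Gjb6 with the mitochondrial limit at 25%. In border-associated macrophages, 4 of the genes (Kcnj10, Aqp4, Gja1 and Gjb6) had no UMI, which allows up to 25.1 CPM over the 4 libraries.

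Fibroblasts, a cluster of 27 cells named for Dcn, Lum, Col1a1, Col1a2 and Slc6a13, had 1 to 8 cells in each of 5 mice and so entered none of these shares, but they held Gjb6. Its level there was 1068 CPM in mouse 9901, 782 in 9969, 69.1 in 9968 and 985 in 9971, and mouse 9949 had 1 fibroblast and no Gjb6 UMI. Gjb6 was thus above the astrocyte level in 3 of the 5 mice. The counts were 13, 11, 1 and 16 UMIs, and the exact 95% Poisson intervals lay above that of astrocytes in mouse 9901 only (569 to 1826 CPM against 336 to 485), since those of 9971 (563 to 1599 against 451 to 608) and 9969 (390 to 1399 against 504 to 639) overlapped. In mouse 9968 the fibroblast interval lay below that of astrocytes (1.75 to 385 CPM against 440 to 566). Gja1 stood at 493, 355, 207 and 185 CPM in fibroblasts of mice 9901, 9969, 9968 and 9971, below astrocytes in each. Slc1a3 had 51 UMIs over the 27 cells and Slc1a2 had 1.

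The shares of the astrocyte level differed between genes within a class. In precursor cells they ran from 1.04% for Gjb6 to 9.97% for Slc6a11 and 152% for Kcnj10, and in oligodendrocytes from 0.502% for Aqp4 to 51.0% for Glul and 157% for Kcnj10. The shares of Gjb6 lay between 0.480% and 2.19% in the named classes with at least 10 cells in a mouse, apart from the macrophages. In 1 unnamed cluster, with 363 barcodes in mouse 9901, they averaged 6.49% ± 4.14 for Slc1a2 and 2.35% ± 3.43 for Gjb6. In mouse 9949 (17 barcodes) this cluster came next after astrocytes for Slc1a2 (1109 CPM), Slc6a11, Aqp4, Gja1 and Gjb6. No test was made between classes, since the cells were put into classes by their expression.

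**Figure D1:**
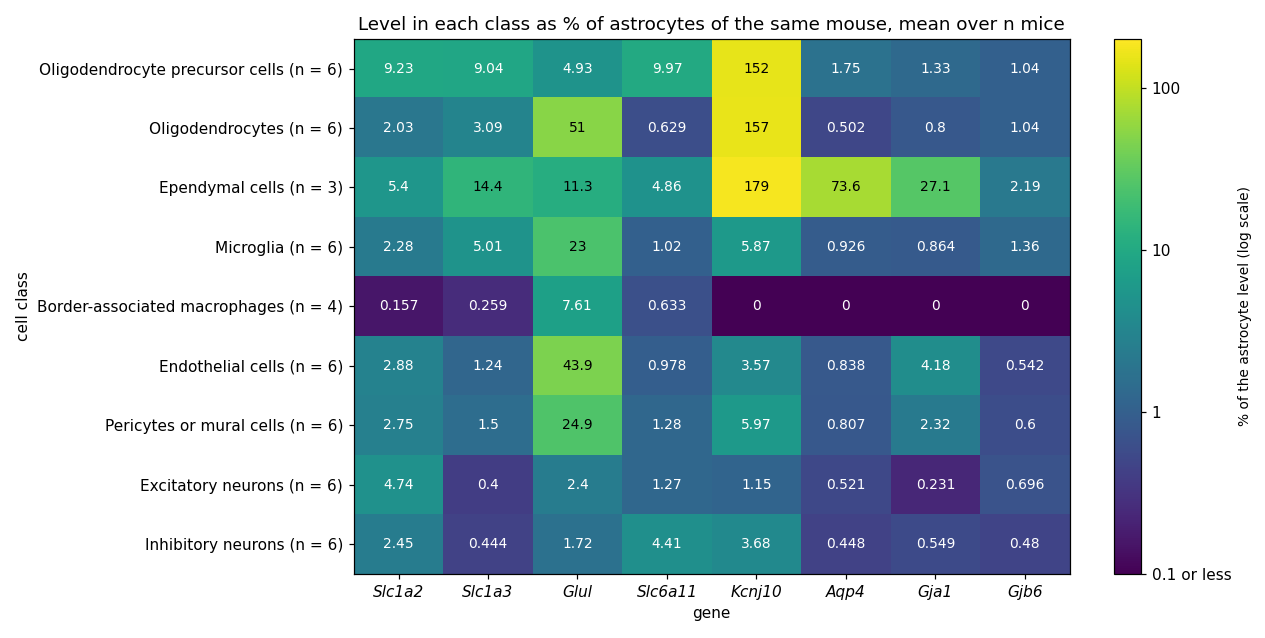
Level of each gene (columns) in each other named cell class (rows), as a percentage of the astrocyte level of the same mouse. Values are means over the n mice with at least 10 cells of the class, with the colour on a log scale. Fibroblasts, which had fewer cells in each mouse, and the unnamed clusters are not drawn. Kcnj10 is above 100 in 3 classes, Glul reaches 51.0 in oligodendrocytes and 43.9 in endothelial cells, and Gjb6 does not exceed 2.19 in the classes drawn.

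Depth was made equal by drawing 1000 UMIs from each cell and leaving out shallower cells, which left 138 to 179 astrocytes per mouse. Slc1a2 then had a UMI in 98.1% to 100% of astrocytes over the 6 mice and Slc1a3 in 94.4% to 99.3%. Gja1 was found in 79.3% to 87.2%, Glul in 77.8% to 90.3%, Aqp4 in 53.6% to 70.3%, Slc6a11 in 50.7% to 64.2%, Gjb6 in 24.6% to 43.7% and Kcnj10 in 9.03% to 20.1%. Before thinning, the share for Kcnj10 was 17.6% to 40.1%. In microglia, which should lack Slc1a2, it had a UMI in 5.83% to 23.6% of thinned cells, against 46.7% to 70.0% of precursor cells. The ranges of microglia and precursor cells did not overlap for Slc1a2. For Kcnj10, the thinned share was 15.0% to 31.0% in precursor cells and 0% to 2.25% in microglia. A thinned astrocyte held a median of 5 or 6 of the 8 genes, and 90.6% to 94.4% of astrocytes held at least 4. The median in precursor cells was 1 or 2 genes, and 0% to 10.0% of them held at least 4.

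Gene pairs were set beside each other in the thinned astrocytes, first the connexins and then Kcnj10 with Aqp4. Where Gja1 had a UMI, Gjb6 had one too in 23.7% of cells of mouse 9901, 41.5% of 9949, 41.3% of 9986, 43.8% of 9969, 42.3% of 9968 and 36.96% of 9971. Where Gja1 had none, the share was 29.2%, 35.3%, 31.0%, 43.3%, 17.4% and 36.4% in the same order. The share was higher where Gja1 was present in 5 of 6 mice and lower in mouse 9901, with 22 to 34 cells behind the second set. In 9969 and 9971 the shares differed by less than 1 percentage point. Where Kcnj10 had a UMI, Aqp4 had one too in 52.6%, 69.7%, 71.4%, 39.1%, 58.3% and 50% of cells, with the mice in that order. Where Kcnj10 had none, the Aqp4 share was 53.8%, 56.5%, 70.2%, 57.04%, 63.9% and 56.4%. The Aqp4 share was thus lower where Kcnj10 was present in mice 9901, 9969, 9968 and 9971 and higher in 9949 and 9986. The cells with Kcnj10 numbered 14 to 33 per mouse.

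Likeness to other genes was taken as Pearson's r of log2(CPM + 10) over 68 sums of 10 named classes and the mice with at least 10 cells. It is a description, as the sums of a mouse share a library and its depth. Closest to Slc1a2 were Scg3 (r = 0.84), Clu (0.83) and Slc4a4 (0.82), and closest to Slc1a3 were Slc7a10, Aldoc and Gpr37l1 (0.86, 0.86 and 0.85). Closest to Kcnj10 were Pcsk6 (0.93), Hepacam (0.93) and Psat1 (0.92). Aqp4 had Sox9 (0.91), Phkg1 (0.91) and Gm973 (0.91), and Gja1 had Gli3 (0.88), Fam107a (0.87) and Phkg1 (0.87). Slc6a11 had Nr2e1 (0.87), Gpld1 (0.86) and Rfx4 (0.86), and Gjb6 had Cyp4f15 (0.92), Agt (0.91) and Bmpr1b (0.91). Glul was nearest Pon2 (0.81), Neat1 (0.81) and Acadl (0.79). Among the 8 themselves, Aqp4 and Gja1 were most alike (r = 0.87) and Glul and Slc6a11 least (0.15).

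The treatment comparison asked whether corticosterone or ketamine moved these genes within astrocytes. None of the 8 passed the test in any of 7 contrasts. UMI counts were summed per mouse and tested over 8312 genes by the quasi-likelihood method of edgeR, all 4 groups sharing 1 estimate of the spread, with Benjamini-Hochberg adjustment, and all 8 genes were tested. In the fit, BCD/Sal and CORT/Sal each hold 1 mouse and are assumed to vary like the ketamine groups. Only the ketamine groups give a spread between mice, and edgeR draws each gene's spread toward that of all genes tested. The p-values and intervals, here and for oligodendrocytes below, rest in large part on that shared spread. Fewer transcripts per astrocyte and a shift in which astrocytes survived dissociation cannot be told apart in such sums.

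The astrocyte values above were read first by group. For Slc1a2, the BCD/Ket mice (7911 and 11311 CPM) and the CORT/Ket mice (8310 and 11814) overlapped, and the lone BCD/Sal (11357) and CORT/Sal (8161) mice lay within their range. For Aqp4, mouse 9986 of BCD/Ket was highest at 1547 CPM and the other 5 mice lay between 912 and 1157. For Gja1, both CORT/Ket mice (1965 and 2051 CPM) lay above both BCD/Ket mice (1731 and 1783). For Glul, both CORT/Ket mice (2198 and 2000 CPM) lay below both BCD/Ket mice (2671 and 2398). Of all genes tested, 15.8% lay higher in both CORT/Ket mice with no overlap and 12.5% lower, beside 1 of 8 each here. Kcnj10, Slc6a11, Slc1a3 and Gjb6 overlapped between CORT/Ket and BCD/Ket.

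**Figure D2:**
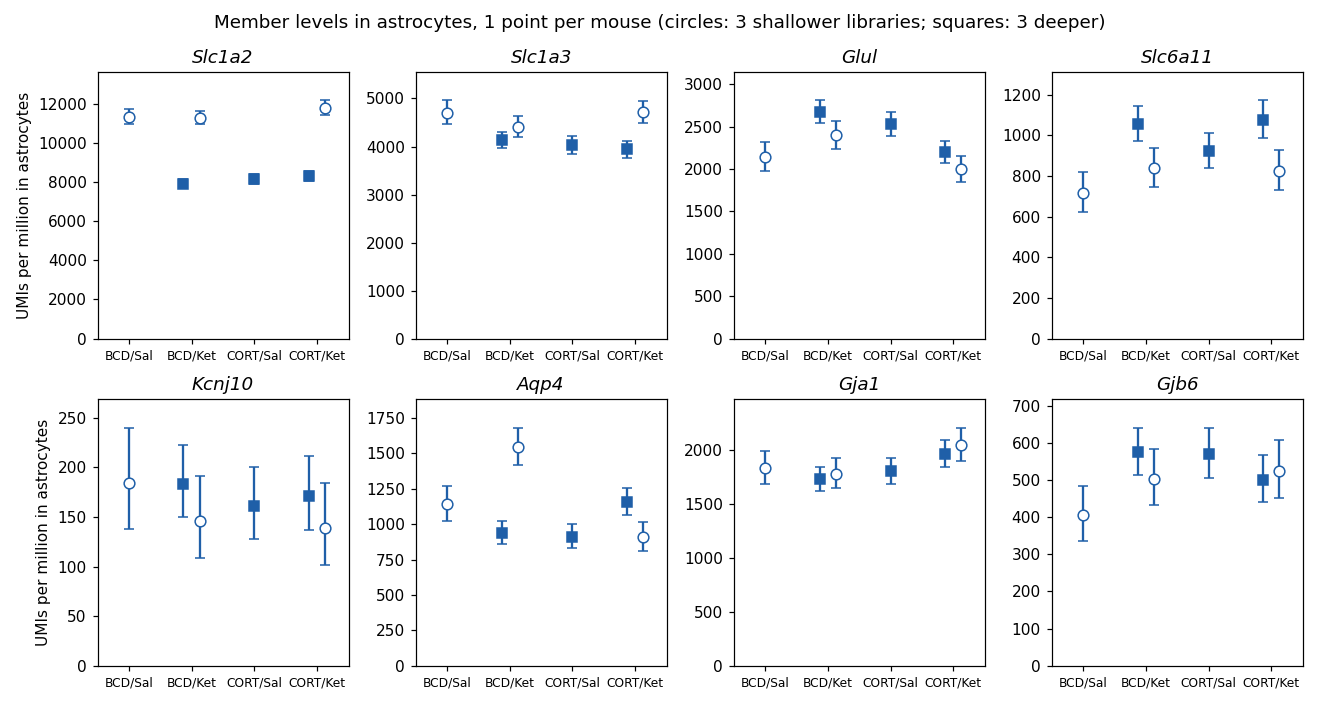
Astrocyte level of each gene in CPM (vertical axis, from 0) for each mouse by group, with exact 95% Poisson intervals for counting error. Open circles are the 3 libraries with fewer UMIs per astrocyte (mice 9901, 9971 and 9986) and filled squares the 3 with more; for Slc1a2 the circles lie between 11311 and 11814 and the squares between 7911 and 8310 whatever the group.

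Averaged over saline and ketamine, corticosterone gave fitted log2 differences between -0.32 (Aqp4) and 0.18 (Gjb6). In order of role, the differences with their SE were -0.23 ± 0.17 for Slc1a2, -0.13 ± 0.17 for Slc1a3, -0.04 ± 0.18 for Glul, 0.16 ± 0.20 for Slc6a11, -0.17 ± 0.24 for Kcnj10, -0.32 ± 0.20 for Aqp4, 0.06 ± 0.18 for Gja1 and 0.18 ± 0.21 for Gjb6. The median of the 8 was -0.09, beside 0.003 over all genes tested. The smallest adjusted p among the 8, that of Aqp4, was 0.726 by edgeR. Called were 0 of 8 genes, where 0.0241% of all genes were called. At an unadjusted p under 0.05 there were 0 of the 8 and 657 of the 8312, and DESeq2 called 0 genes in all. The 95% interval for Slc1a2 ran from -0.57 to 0.11, or from 0.675-fold to 1.08-fold, and that for Gja1 from -0.30 to 0.42. The values of Slc1a2, Slc1a3, Glul and Aqp4 changed sign at Leiden resolution 0.4, where mice 9947, 9946 and 9967 also entered, as given below.

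Averaged over BCD and CORT, ketamine gave log2 differences of 0.02 ± 0.17 (SE) for Slc1a2, -0.03 ± 0.17 for Slc1a3, -0.03 ± 0.18 for Glul, 0.21 ± 0.20 for Slc6a11, -0.11 ± 0.24 for Kcnj10, 0.13 ± 0.20 for Aqp4, 0.03 ± 0.18 for Gja1 and 0.12 ± 0.21 for Gjb6. Their median was 0.02, beside 0.03 over all genes. Called were 0 of 8 against 0% of all genes, with 0 of 8 and 259 of 8312 at an unadjusted p under 0.05 and 0 genes by DESeq2. For Slc6a11, the member with the highest value, the 95% interval ran from -0.19 to 0.62.

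The 4 simple contrasts and the difference of the ketamine effects gave the same counts. Of the 8 genes, 0 were called in CORT/Sal against BCD/Sal (0.0481% of all genes), 0 in BCD/Ket against BCD/Sal (0.0241%), 0 in CORT/Ket against CORT/Sal (0%), 0 in CORT/Ket against BCD/Ket (0%) and 0 in the difference (0%). In each of these, 0 of the 8 had an unadjusted p under 0.05 by edgeR and 0 were called by DESeq2. The values furthest from 0 were those of the difference, that is the ketamine effect under corticosterone minus that under vehicle: 0.54 ± 0.34 for Slc1a2 (adjusted p = 0.871, edgeR), -0.57 ± 0.42 for Gjb6 and -0.52 ± 0.36 for Glul. The contrast between the saline groups gave -0.50 ± 0.28 for Slc1a2 (adjusted p = 0.604, edgeR) from 1 mouse a side. In that contrast the CORT/Sal astrocytes had a median of 2701 UMIs and the BCD/Sal astrocytes 1058, so that treatment and depth cannot be told apart. With depth added to the fit as a term, a choice made after the values were seen, both Slc1a2 values changed sign. The difference was then -0.44 ± 0.40 and the saline contrast 0.30 ± 0.32. For Gjb6 and Glul the difference was -0.41 ± 0.51 and -0.20 ± 0.42. The depth slope in this fit comes from the ketamine mice only, since each saline group holds 1 mouse. It is carried to mouse 9901 (1058 UMIs), which is shallower than any ketamine mouse. The changes of sign therefore do not separate treatment from depth. The SE values of this fit rest still more on the spread shared by all genes, since the term takes up spread between mice.

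**Figure D3:**
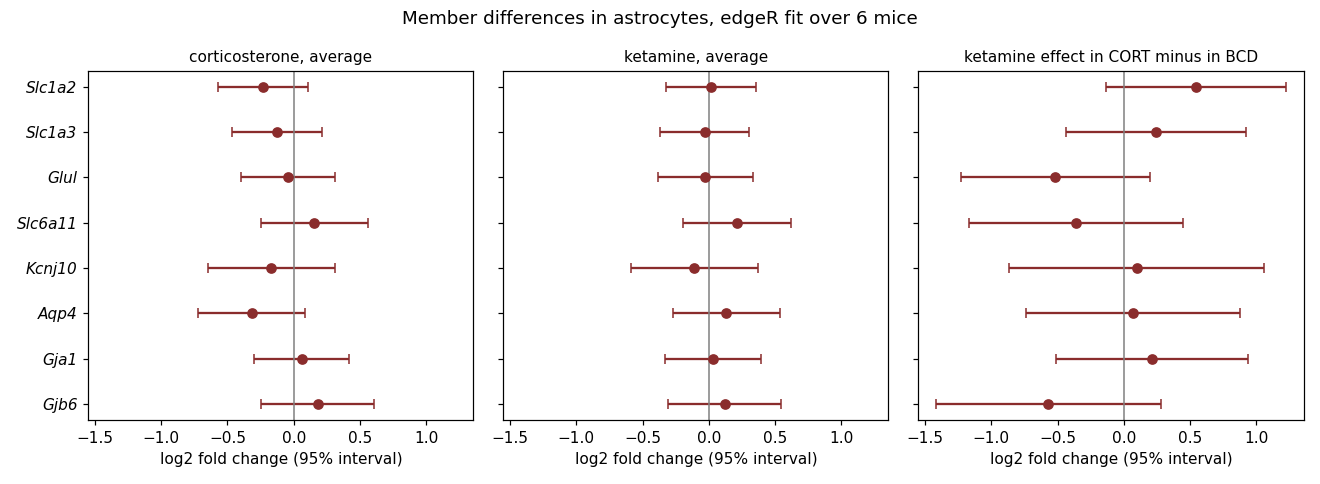
Fitted log2 fold change (horizontal axis, with 95% interval) of each gene in astrocytes for the corticosterone average, the ketamine average and the difference of the ketamine effects, from 1 edgeR fit over 6 mice. Every interval includes 0, and the intervals of the difference are the widest.

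The levels of the 8 genes were also set beside the depth of the library. Ordered by median UMIs per astrocyte, mice 9901, 9971 and 9986 (1058, 1390 and 1671) were shallower than 9968, 9969 and 9949 (2433, 2701 and 3072). Slc1a2 lay between 11311 and 11814 CPM in the shallower libraries and between 7911 and 8310 in the deeper ones, a ratio of means of 1.41 with no overlap. Slc1a3 followed in the same direction (4405 to 4718 against 3941 to 4126 CPM), and Slc6a11 in the opposite one (718 to 839 against 923 to 1078). The other 5 genes overlapped. Of the 8312 genes tested, 12% were higher in the shallower libraries with no overlap and 10.4% were lower. The 3 of 8 separated genes stand beside these shares. These sets were formed after the values were seen, and each holds 1 CORT/Ket and 1 BCD/Ket mouse. Within the sets, the log2 ratio of CORT/Ket over BCD/Ket was 0.06 and 0.07 for Slc1a2, -0.26 and -0.28 for Glul, 0.20 and 0.18 for Gja1, and -0.76 and 0.30 for Aqp4, shallower set first. With depth added to the fit as a term, also after the values were seen, the corticosterone average for Slc1a2 was 0.08 ± 0.16 in place of -0.23 ± 0.17. The depth slope in that fit again came from the ketamine mice only, and its SE again rests mostly on the spread shared by all genes. Summed markers of excitatory neurons in the astrocytes were 606 CPM in mouse 9901 and 117 to 274 in the other 5, and their part in these values was not tested.

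Astrocytes of the same mouse were also compared among themselves. Each library's astrocytes were divided at their median UMI count and the level of each gene was taken in CPM of non-mitochondrial UMIs, a division chosen after the values were seen. Glul was higher in the larger-count astrocytes of all 6 mice: 2520 against 1891 CPM in 9901, 3190 against 2079 in 9949, 2946 against 1814 in 9986, 3065 against 1907 in 9969, 2659 against 1706 in 9968 and 2487 against 1471 in 9971, or 1.55-fold. Slc1a3 was 1.17-fold higher in 6 of 6. Slc6a11 was lower in 6 of 6 (0.777-fold) and Slc1a2 lower in 6 of 6 (0.932-fold). Each of these 4 had an exact two-sided sign-flip permutation p of 0.0313, the smallest that 6 mice can give, and an adjusted p of 0.0833 over the 16 relations computed. Kcnj10, Aqp4, Gja1 and Gjb6 lay on both sides of 1. Between libraries, Slc1a3 was lower and Slc6a11 higher in the deeper set, opposite to their direction within mice. Slc1a2 was lower in both views. When divided by mitochondrial share instead, Aqp4 (1.26-fold) and Gja1 (1.08-fold) were higher above the median in 6 of 6 mice, at the same exact permutation p and adjusted p. How many of all genes kept 1 direction in 6 of 6 mice in either division is not given here. These counts thus do not set the named genes apart from other genes. None of the 16 passed 0.05 after adjustment. With 6 mice, passing would have needed most of the 16 to lie at the smallest p, so the failure decides little.

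**Figure D4:**
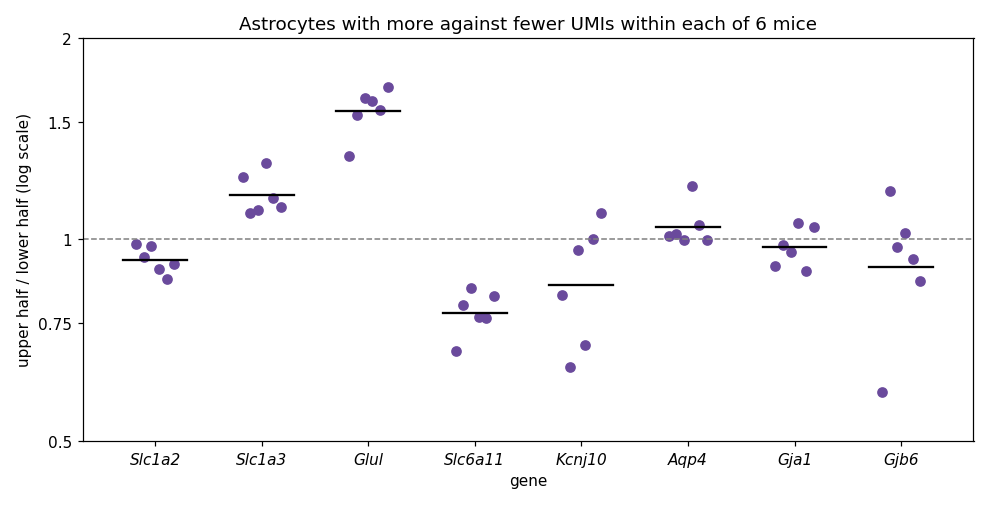
Ratio of each gene's level in astrocytes above over below the median UMI count of their library (vertical log axis), 1 point per mouse for 6 mice, with the geometric mean as a bar. All 6 points lie above 1 for Slc1a3 and Glul (mean 1.55) and below 1 for Slc1a2 and Slc6a11 (mean 0.777).

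Barcodes outside the filters carried the genes as well. The filters left out 20417 barcodes, 20364 of them for the mitochondrial share. In CPM of non-mitochondrial UMIs, Slc1a2 stood at 5736, 5923, 4529, 4071, 4174 and 4617 in left-out barcodes of mice 9901, 9949, 9986, 9969, 9968 and 9971, against 2401, 2357, 2736, 2049, 2751 and 2750 in kept ones, 1.92-fold higher on average and higher in 6 of 6. Kcnj10 (1.61-fold) and Glul (1.40-fold) were also higher in 6 of 6. The rest went the other way: Slc1a3 (0.739-fold), Aqp4 (0.764-fold), Gja1 (0.528-fold) and Gjb6 (0.552-fold) were lower in 6 of 6 and Slc6a11 (0.787-fold) in 5 of 6. Gja1, for example, was 204, 336, 196, 277, 269 and 208 in left-out against 352, 496, 414, 458, 632 and 459 in kept barcodes. Over all 10 libraries, left-out barcodes were higher in 9 for Slc1a2, 8 for Kcnj10 and 7 for Glul. They were higher in 2 for Slc6a11, 2 for Aqp4 and 0 for Slc1a3, Gja1 and Gjb6. The share of all genes with 1 direction in each mouse is not given here. The classes of the left-out barcodes were not determined, and a difference in cell makeup between the sets was not tested. With the limit moved to 5%, all 8 genes were higher in left-out barcodes in 6 of 6 mice, the median mitochondrial share of astrocytes being 6.74% to 8.20%.

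**Figure D5:**
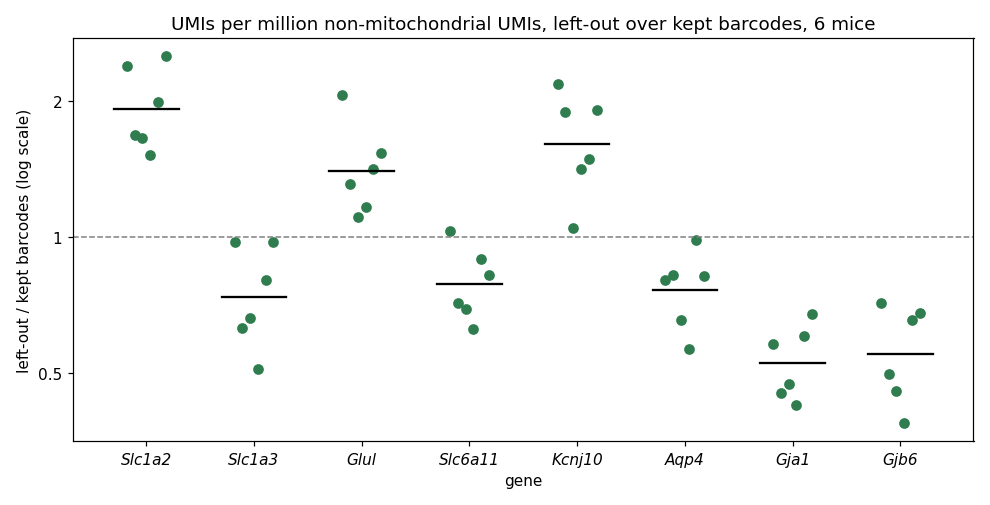
Ratio of each gene's level in barcodes left out by the filters over kept barcodes (vertical log axis, from CPM of non-mitochondrial UMIs), 1 point per mouse for the 6 libraries with astrocytes, with the geometric mean as a bar. Slc1a2, Glul and Kcnj10 lie above 1 in each mouse, and Gja1 and Gjb6 lie furthest below.

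The libraries with fewer than 10 astrocytes still held UMIs of the 8 genes. In mouse 9970 the cells these came from were not determined. Nearly all kept barcodes of mouse 9970 (CORT/Sal) formed 1 unnamed cluster led by Gng13, Bc1 and Ddn, transcripts of neurons and their dendrites. In its 2346 barcodes Slc1a2 stood at 1121 CPM, Glul at 515, Slc1a3 at 341, Gja1 at 173, Slc6a11 at 111, Gjb6 at 76.5, Aqp4 at 70.7 and Kcnj10 at 54.3. After thinning to 1000 UMIs, Slc1a2 had a UMI in 68.1% of them. In mice 9947, 9946 and 9967 an unnamed cluster led by Kirrel2, Atp13a4 and Dio2 held 10, 20 and 36 barcodes with a median of 512 UMIs over the cluster. There Slc1a2 reached 5071, 7861 and 4853 CPM and Kcnj10 had 0, 1 and 0 UMIs. Counted with the astrocytes, this cluster brought 3 more mice into the fit, and 0 of the 8 genes were called in any contrast.

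Oligodendrocytes, in which Glul and Kcnj10 were well above the level of microglia or neurons, could be tested with 8 mice. Only 4 of the 8 genes (Slc1a2, Slc1a3, Glul and Kcnj10) passed the filter on low counts, among 3493 genes. Called were 0 of 4 in BCD/Ket against BCD/Sal, with 0.0286% of all genes called, 0 in CORT/Ket against BCD/Ket (0.0286%), 0 in the corticosterone average (0.286%) and 0 in the ketamine average (0%). DESeq2 called 0 members in each. Glul stood at 1375 and 2211 CPM in BCD/Sal mice 9901 and 9947, 1256, 1680 and 1129 in BCD/Ket mice 9946, 9949 and 9986. The corticosterone mice had 1107 (CORT/Sal mouse 9969), 785 and 1047 (CORT/Ket mice 9968 and 9971). The 3 corticosterone mice were the lowest of the 8. Kcnj10 stood at 252 and 578 CPM in BCD/Sal, 362, 307 and 334 in BCD/Ket. The CORT/Sal value was 236 and the CORT/Ket values 159 and 230, and the 3 corticosterone mice were again the lowest. The nearest mice overlapped in their exact 95% Poisson intervals. For Kcnj10 these were 167 to 324 CPM in mouse 9969 and 154 to 390 in mouse 9901. For Glul they were 950 to 1282 CPM in mouse 9969 and 980 to 1294 in mouse 9986. The highest vehicle values of both genes were those of mouse 9947, from 29 cells with 65 Glul and 17 Kcnj10 UMIs. Median UMIs per oligodendrocyte were 4820, 5094 and 2358 in corticosterone mice 9969, 9968 and 9971. They were 1678, 895, 1050, 5182 and 2707 in vehicle mice 9901, 9947, 9946, 9949 and 9986. The part of this depth in the Glul and Kcnj10 values was not tested. Of the 3493 genes tested, 2.32% lay lower in all 3 corticosterone mice than in the 5 vehicle mice and 2.75% higher, and 10.1% had an unadjusted p under 0.05 in the corticosterone average. The corticosterone average was -0.59 ± 0.26 (SE) for Glul (unadjusted p = 0.0250, adjusted p = 0.433, edgeR) and -0.70 ± 0.34 for Kcnj10 (unadjusted p = 0.0365, adjusted p = 0.462, edgeR), and neither passed. The 95% interval of the Kcnj10 difference ran from -1.36 to -0.04.

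The oligodendrocyte value of Slc1a2 rested on the 2 BCD/Sal libraries. It stood at 681 CPM in BCD/Sal mouse 9901 and 0 in BCD/Sal mouse 9947, and between 20.1 and 152 in the other 6. Without mouse 9947, BCD/Ket against BCD/Sal was -2.58 ± 0.46 (adjusted p = 3.31e-05, edgeR) and the corticosterone average -1.59 ± 0.40 (adjusted p = 0.0309), in a fit where mouse 9901 is the only BCD/Sal mouse and is assumed to vary like the other groups. Without mouse 9901 both values turned positive and were not called (adjusted p = 0.673 and 0.483, edgeR). BCD/Sal is then mouse 9947 alone with 0 UMIs, so the fitted folds of 6.91 and 3.15 on the log2 scale depend on the prior count and have no fixed size. Without mouse 9946 the values were -1.52 ± 0.50 and -1.43 ± 0.44 (adjusted p = 0.410 and 0.241, edgeR). Astrocyte markers in these oligodendrocytes summed to 593 CPM in mouse 9901, with 11 of 16 detected, and to 367 to 609 CPM in the other 7, with 4 to 13 detected, and their part in the Slc1a2 value was not tested.

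A list of 24 other genes of the same functions was counted alongside. It covers further carriers and enzymes (such as Slc7a11 and Glud1), ion carriers such as Slc4a4, and proteins of the astrocyte endfoot such as Mlc1, Hepacam, Dtna and Dag1. In astrocytes all 24 were tested and 0 were called in each of the 7 contrasts by edgeR, with 0 to 2 at an unadjusted p under 0.05 and 0 by DESeq2.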

How the data were processed

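Cells of the dissociated tissue were captured in droplets and sequenced as 1 BLA library per mouse on the 10x platform, and the prefrontal libraries under the same mouse numbers were not analysed here. The authors deposited raw UMI counts per gene and barcode for each library, written by Cell Ranger (software version 3.0.2 in the file headers), with mm9 and Seurat 3.1.1 named in the submitters' processing notes. The extraction text of the labels speaks of prefrontal cortices also for the amygdala samples. The 8 genes and the gene lists were chosen with earlier results of these data known.

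Barcodes with at most 12.5% mitochondrial UMIs and at least 200 genes were kept. They were clustered with scanpy 1.11.5 on 2000 variable genes, without the 8 genes, the 24 pathway genes and mitochondrial genes, using 30 components, 20 neighbours and Leiden resolution 0.8. A cluster was named for at least 3 of its markers among 50 leading genes. Doublets were not removed. Counts were summed per class and mouse with at least 10 cells. They were tested with edgeR 4.0.16 (TMM factors, filterByExpr, robust quasi-likelihood test, R 4.3.3), with Benjamini-Hochberg adjustment over all genes tested and a threshold of 0.05, and DESeq2 1.42.0 as an alternative. The test was run first on simulated counts. The libraries held 811628 to 7281768 UMIs. Named genes were the 8, any of the 24 pathway genes, and for each of the 8 the 3 most alike genes. Other settings tried were filters, resolutions, normalization, doublet removal and leaving out each library. Some results for genes of the pathway list are not reported here.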

Additional observations from a re-analysis of the deposited data

Results flagged for a closer look

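The barcodes left out by the filters, which enter none of the treatment comparisons, held UMIs of all 8 genes above the 3 counts that a count of 0 allows. Over the 10 libraries there were 68370 UMIs of Slc1a2, 11691 of Slc1a3 and 20068 of Glul. Slc6a11 had 2592, Kcnj10 had 2008 and Aqp4 had 2952 UMIs in these barcodes. The connexins had 3576 (Gja1) and 1033 (Gjb6). No group held the 4 samples that a test for a single outlying mouse needs.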

How the results depend on the processing

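No paired analysis was possible because each mouse gave 1 BLA library and the groups hold different mice. In astrocytes, 0 of the 8 genes were called in any contrast under any setting run. In oligodendrocytes the number called ranged from 0 to 1 when single libraries were left out, the 1 being Slc1a2 without mouse 9947, in BCD/Ket against BCD/Sal and in the corticosterone average. The number of genes higher in left-out barcodes in all 6 mice was 3, and 8 with a mitochondrial limit of 5%. Over settings and genes, 250 of the single-gene log2 averages kept their direction and 38 reversed, none past the threshold, and the cause was not tested. Some settings also changed which mice had at least 10 astrocytes. Removing likely doublets brought in mouse 9946 (10 cells), and the 5% limit brought in mouse 9967 (15 cells). Resolution 0.4, the genes kept in the clustering and the Kirrel2 cluster each brought in mice 9947, 9946 and 9967. Setting and added mice cannot be told apart in the values below. For the corticosterone average the reversed values of Slc1a2, Slc1a3, Glul and Aqp4 were 0.13, 0.19, 0.14 and 0.048 at resolution 0.4, 0.13, 0.19, 0.14 and 0.045 with the genes kept in the clustering, and 0.13, 0.19, 0.14 and 0.047 with the Kirrel2 cluster counted as astrocytes (chosen after seeing the data). With depth as a term (also chosen then) Slc1a2 was 0.079 and Slc6a11 -0.074, without likely doublets Slc1a3 was 0.066 and Glul 0.11, and at a 5% limit Kcnj10 was 0.024 and Gja1 -0.080. For the ketamine average, the 5% limit gave -0.14 for Slc1a2, 0.12 for Glul, -0.61 for Aqp4, -0.21 for Gja1 and -0.32 for Gjb6, and the 25% limit 0.018 for Glul. Without likely doublets Slc1a2 was -0.14, Aqp4 -0.046 and Gja1 -0.17, and with depth as a term Slc1a3 was 0.017. Gja1 was -0.029 at resolution 0.4, -0.029 with the genes kept in the clustering and -0.028 with the Kirrel2 cluster. Leaving out single libraries, the ketamine average ran from -0.12 to 0.12 for Slc1a2, -0.10 to 0.023 for Slc1a3, -0.077 to 0.026 for Glul and -0.052 to 0.28 for Aqp4, and the corticosterone average from -0.081 to 0.013 for Glul. Leaving out mouse 9901 or 9969 empties a group in astrocytes and gave no value. With 1 saline mouse a side, only large differences could be detected.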
